A study of Mus musculus with 36 samples.

Results

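Imprinted growth genes were followed through fetal kidneys, adult kidneys and tumors of 3 sites in mice that carry the ASPSCR1-TFE3 gene fusion. The set held 10 genes, H19, Igf2, Meg3, Rian, Dlk1, Cdkn1c, Peg3, Plagl1, Mest and Grb10, chosen by symbol out of 53379 genes in the count tables. All 10 were found by their Ensembl identifier, and all 10 had enough counts to be tested in each of the 9 comparisons. The samples were 36 RNA libraries from formalin-fixed, paraffin-embedded tissue, and they came from 17 animals.

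In the adult model the genotype was Sglt2-Cre; ASPSCR1-TFE3 LSL/+, in which a Cre recombinase under the Sglt2 promoter, active in the proximal tubule of the kidney, removes a stop cassette and switches on the fusion. The 6 mice of this genotype gave 11 kidney tumor libraries from 6 mice, 4 retro-orbital tumor libraries from mice 2, 3, 5 and 6, 3 brain tumor libraries from mice 1, 2 and 4, and 4 libraries of non-transformed kidney from mice 1, 3, 4 and 5. Controls were 3 mice with Sglt2-Cre alone, which gave 6 kidney libraries. In the fetal model the Cre was under the Pax8 promoter, active in the renal epithelium, and 5 Pax8-Cre; ASPSCR1-TFE3 LSL/+ fetuses gave kidneys labelled dysmorphic. The 3 control fetuses carried Pax8-Cre per their labels while the design text of the series allows either parental allele alone, and they were age-matched. Ages and strain were not given in the sources used here. Libraries of the same animal and group were summed, so that the animal was the replicate (n = 6, 4, 3, 4, 3, 5 and 3). The labels do not give the litters of the fetuses, and p-values measure only the spread between these animals.

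An imprinted gene is expressed from the copy inherited from a single parent, because DNA methylation set in the egg or sperm silences the other copy. Several imprinted genes form a network that drives growth of the fetus and is turned down in most organs soon after birth, and several of them are expressed again, or lose their imprint, in embryonal tumors of the kidney. Genes expressed from the paternal copy, such as Igf2, Dlk1, Peg3, Mest and Plagl1, tend to promote growth, and genes expressed from the maternal copy, such as H19, Cdkn1c and Grb10, tend to restrain it. The counts do not tell the parental copies apart.

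The members lie on 5 chromosomes (GENCODE M21, build GRCm38). H19, a long non-coding RNA (chr7:142575529-142578143), Igf2, which encodes insulin-like growth factor 2 (chr7:142650766-142666816), and Cdkn1c, which encodes the cell cycle inhibitor p57 (chr7:143458339-143461050), are on distal chromosome 7, and Peg3, a zinc finger gene (chr7:6703892-6730431), is at the other end of it. Dlk1, a transmembrane ligand related to the Notch ligands (chr12:109452823-109463336), and the long non-coding RNAs Meg3 (chr12:109541001-109571726) and Rian (chr12:109603940-109661716) form a single imprinted cluster on chromosome 12. Plagl1, a zinc finger transcription factor (chr10:13060504-13131694), Mest, a hydrolase-like protein of the mesoderm (chr6:30723547-30748465), and Grb10, an adaptor that binds the insulin and IGF1 receptors (chr11:11930508-12038683), lie on chromosomes 10, 6 and 11. Mest overlaps Copg2 and Igf2 overlaps Igf2os on the other strand, and whether the counting used strand is not given in the sources used here, so these counts are uncertain where the genes overlap. Copg2 ranged from 61.1 to 110.0 CPM (counts scaled to the library total) over all libraries, a far narrower range than Mest.

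The start regions of Plagl1, Mest and Meg3 are printed here. Plagl1 and Mest had the smallest edgeR p of the members between retro-orbital and kidney tumors, although Cdkn1c and Dlk1, among others, had larger log2 fold changes. Meg3 belongs to the cluster with the largest log2 fold changes of the members between the fetal groups. Each window runs from 250 bases before to 50 bases after a transcription start (RefSeq, GRCm38.p6), 5′ to 3′ on the strand of the gene. Capitals mark CACGTG, the E-box that TFE3 and its relatives bind, and TGCCGC, the core that the imprint-keeping factor ZFP57 binds when it is methylated, on either strand. The marked motifs do not overlap each other. The windows are chr10:13090582-13090881 (Plagl1), chr6:30737800-30738099 (Mest) and chr12:109540746-109541045 (Meg3), all on the plus strand.
Plagl1: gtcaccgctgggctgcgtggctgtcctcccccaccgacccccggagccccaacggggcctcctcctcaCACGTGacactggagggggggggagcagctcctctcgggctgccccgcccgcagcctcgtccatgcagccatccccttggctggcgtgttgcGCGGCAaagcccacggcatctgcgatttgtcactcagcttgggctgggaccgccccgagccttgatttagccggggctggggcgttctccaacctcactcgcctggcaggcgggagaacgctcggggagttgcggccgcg
Mest: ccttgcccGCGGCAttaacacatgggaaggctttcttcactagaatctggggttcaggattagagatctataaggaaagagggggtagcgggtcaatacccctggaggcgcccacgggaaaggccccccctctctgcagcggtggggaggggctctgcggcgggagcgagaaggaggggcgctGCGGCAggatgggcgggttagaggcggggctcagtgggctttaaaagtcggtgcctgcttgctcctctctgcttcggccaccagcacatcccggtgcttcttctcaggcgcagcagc
Meg3: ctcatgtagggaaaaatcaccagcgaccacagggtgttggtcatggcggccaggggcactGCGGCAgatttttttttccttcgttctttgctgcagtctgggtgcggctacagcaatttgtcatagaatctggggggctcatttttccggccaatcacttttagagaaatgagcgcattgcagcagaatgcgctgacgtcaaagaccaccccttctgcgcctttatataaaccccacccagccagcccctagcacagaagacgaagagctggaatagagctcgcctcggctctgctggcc

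Of the 10 members, 8 had windows in the table, 15 windows in all, and the 2 without were H19 and Cdkn1c. TGCCGC was found in 6 of the 15 windows, belonging to Mest, Igf2, Plagl1, Grb10 and Meg3, against 11.6% of 32851 windows of all genes. CACGTG was found in 1, that of Plagl1, against 7.15% of all windows. The related motif TCATGTG was found in 0 of the 15, against 3.77%. These are matches of letters in short windows only, and some windows of the same gene overlap.

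Several members also contain small RNA genes, shown because the counts of some of these loci could be set beside their hosts. The mature sequences below are from RefSeq (GRCm38.p6), with the seed (bases 2 to 8) in capitals, and no seed was shared among the 15 mature sequences that lie within 5 members.
miR-675-5p (in H19): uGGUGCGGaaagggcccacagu
miR-675-3p (in H19): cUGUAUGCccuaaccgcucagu
miR-335-5p (in Mest): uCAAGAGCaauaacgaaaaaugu
miR-370-3p (in Rian): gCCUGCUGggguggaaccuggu
The locus Mir675 had 0 counts in each of 36 libraries, in spite of the high counts of H19 in the fetuses. Mir370, within Rian, had 11.2 to 32.2 CPM in dysmorphic fetal kidneys and 3.46 to 5.37 CPM in control fetal kidneys, with at most 1.62 CPM in any adult library. Mir335, within Mest, had 3.76 to 6.27 CPM in dysmorphic and 1.24 to 3.57 CPM in control fetal kidneys, and 0.290 to 2.38 CPM in retro-orbital tumors. The dysmorphic and control libraries did not overlap for Mir335, while those of its host Mest did. Mir483, within Igf2, had 0.0462 to 0.326 CPM in dysmorphic and 0.0235 to 0.0457 CPM in control fetal kidneys, and Mir341, within Rian, 0.169 to 0.361 and 0.0573 to 0.0939 CPM, and these low values rest on few reads. Reads of the host transcript cannot be told apart from reads of the small RNA in these libraries.

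Totals were 80205573 to 121415057 counts per library, so that 3 counts correspond to 0.025 to 0.037 CPM and the low values of Igf2 given below rest on few reads. Gpnmb, a lysosomal gene that TFE3 fusions induce, was 0.968 to 3.22 CPM in control kidney libraries, 109.9 to 449 in non-transformed kidneys, at least 2415 in every tumor library of the 3 sites, and 15.1 to 556 in dysmorphic against 0.442 to 6.49 in control fetal kidneys. The 5 proximal tubule markers summed to 10877 to 11720.0 CPM in control kidneys and 621 to 7742 CPM in kidney tumors. Of 28 adult libraries, 9 held the embryonic and perinatal muscle myosin Myh8 at 10 CPM or more, among them 1 control kidney library and 5 kidney tumor libraries from mice 2, 3, 4 and 5. Comparisons were therefore also fitted without those 9 libraries, a setting chosen after the values were seen.

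**Figure D1:**
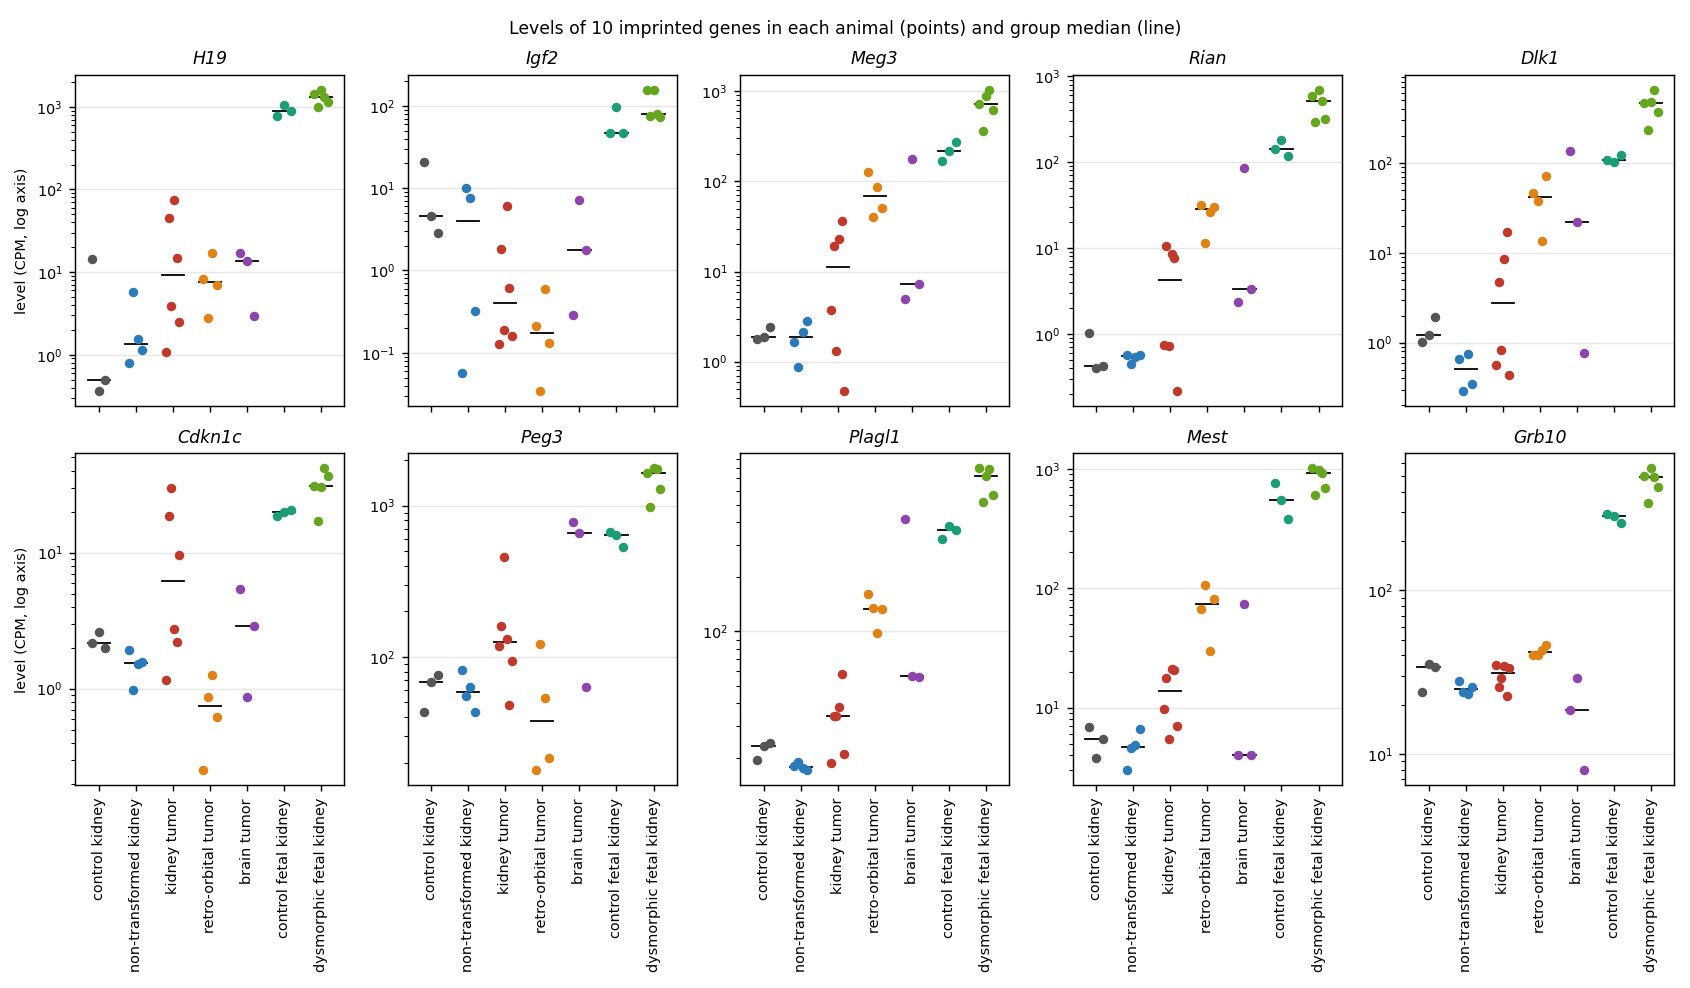
Level of each of the 10 imprinted genes (CPM, log axis) in every animal, with animals as points, the 7 groups on the horizontal axis and a line at the group median. For H19, Igf2, Rian, Mest and Grb10 every fetal kidney stands above every adult sample. Brain tumors of mouse 1, mouse 2 or both reach the fetal range for Peg3, Plagl1, Dlk1 and Meg3. Kidney tumors of mice 2 and 3 do so for Cdkn1c.

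All levels below are CPM scaled with TMM factors. Compared per kilobase of exon, the median level in control fetal kidneys was highest for H19, at 362 CPM per kb, followed by Mest at 139, Peg3 at 47.8 and Plagl1 at 46.3. Grb10 followed at 31.4, Dlk1 at 19.2, Meg3 at 12.1, Cdkn1c at 9.73, Igf2 at 8.27 and Rian at 7.80 CPM per kb. The ranges of Peg3 and Plagl1 overlapped, as did those of each neighbor from Meg3 down to Rian, while the other neighbors did not overlap. In control adult kidneys the order was another: Peg3 stood first, at 5.15 CPM per kb, then Grb10 at 3.76 and Plagl1 at 2.99, whose ranges overlapped their neighbor's, and H19 was at 0.202 CPM per kb, eighth of the 10. In kidney tumors the range of each gene overlapped that of the next in the order. Exon length is the union over all annotated transcripts, which lowers the value of genes with long rare isoforms.

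Control fetal kidneys were compared to control adult kidneys. All 10 members were higher in the fetus, and for all 10 the groups did not overlap. The percentage of all genes called was 49.0% in either direction and 25.1% for higher in the fetus, and the groups did not overlap for 60.9% of all genes. DESeq2 also called all 10 higher, and 53.7% of all genes. The members' log2 fold changes had a median of 5.18, against 0.03 over all genes tested. Age, Cre driver and count table change together between these groups, and their parts cannot be told apart. Neither can fewer cells of a type and less RNA per cell in such bulk tissue. The 8 skeletal muscle markers summed to 4284 to 4493 CPM in the fetal and 3.29 to 15.8 CPM in the adult controls, with 8 of 8 called higher, and the 9 mesenchyme markers to 3228 to 4263 and 312 to 539 CPM, with 7 of 9 called higher. Of these markers Myog was at 0 in control adult kidneys. The 5 proximal tubule markers summed to 1131 to 1363 and 10877 to 11720.0 CPM, with 5 of 5 called lower. The fetal samples thus held tissue other than kidney epithelium, and its part in the members' difference was not tested.

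H19 was 764, 1044 and 891 CPM in the 3 control fetuses and 14.3, 0.361 and 0.497 CPM in the 3 control adults (log2 fold change 7.50, SE 1.70, edgeR adjusted p = 0.0112). A single control mouse stood far above the other two, and its level came from 1 of its 2 libraries, at 28.2 against 0.287 CPM. That library was the one with Myh8 at 12.3 CPM, and without it the H19 log2 fold change was 11.21 (edgeR adjusted p = 1.31e-05).

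The genes of the chromosome 12 cluster were also among the largest differences. Rian was 142, 183 and 118 CPM in the fetuses and 1.03, 0.402 and 0.424 CPM in the adults (log2 fold change 7.93, SE 0.52, edgeR adjusted p = 9.87e-05). Meg3 was 167, 219 and 273 CPM in the fetuses and 1.77, 1.85 and 2.41 CPM in the adults (log2 fold change 6.80, SE 0.28, edgeR adjusted p = 3.03e-05). Dlk1 was 108, 102 and 123 CPM in the fetuses and 1.03, 1.21 and 1.93 CPM in the adults (log2 fold change 6.35, SE 0.31, edgeR adjusted p = 3.96e-05). No adult control was above 2.41 CPM for any of the 3.

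Mest was 756, 547 and 377 CPM in the fetuses and 6.84, 3.81 and 5.44 CPM in the adults (log2 fold change 6.73, SE 0.39, edgeR adjusted p = 6.79e-05). Plagl1 was 324, 384 and 362 and 19.5, 23.3 and 24.2 CPM (log2 fold change 4.02, SE 0.16, edgeR adjusted p = 2.67e-05). Peg3 was 665, 637 and 537 and 43.2, 68.7 and 75.4 CPM (log2 fold change 3.32, SE 0.25, edgeR adjusted p = 0.000159). These genes were still measured at several CPM or more in the adult, and Peg3 the highest of the 10.

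Grb10 was 295, 285 and 260.3 CPM in the fetuses and 24.1, 35.4 and 34.2 CPM in the adults (log2 fold change 3.19, SE 0.19, edgeR adjusted p = 6.84e-05). Cdkn1c was 18.6, 19.8 and 20.6 and 2.17, 2.62 and 1.99 CPM (log2 fold change 3.15, SE 0.19, edgeR adjusted p = 6.8e-05). Igf2 was 47.3, 97.4 and 47.3 CPM in the fetuses and 20.8, 4.54 and 2.88 CPM in the adults (log2 fold change 2.79, SE 0.80, edgeR adjusted p = 0.0267). Without control mouse 1 its log2 fold change was 4.12 (edgeR adjusted p = 0.00414). Without control mouse 2, control mouse 3 or control fetus 2 Igf2 was not called (edgeR adjusted p = 0.091, 0.065 and 0.0824), nor was it in the fit over all 7 groups (log2 fold change 2.77, edgeR adjusted p = 0.141), and the other 9 members were called in each of these fits. With upper quartile factors the median of all genes rose to 0.26 on the log2 scale and all 10 members were still called higher.

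**Figure D2:**
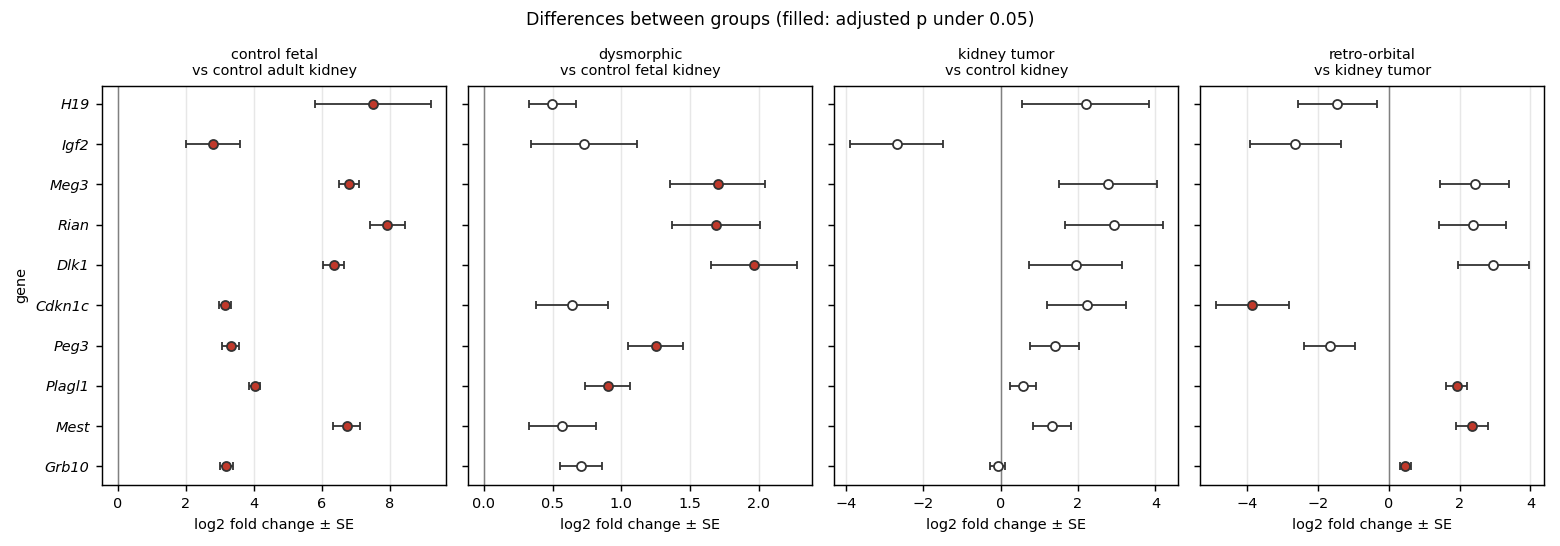
Log2 fold change with its SE for each of the 10 genes in 4 comparisons, with filled points for an edgeR adjusted p under 0.05. All 10 genes are called higher in the control fetus than in the control adult, 5 in the dysmorphic fetal kidney, 0 in kidney tumors against control kidneys, and 4 differ between retro-orbital and kidney tumors.

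The fusion was next examined in the fetal kidney itself. All 10 members had a higher mean in dysmorphic than in control fetal kidneys, and 5 were called: Dlk1, Rian, Meg3, Peg3 and Plagl1. The percentage of all genes called was 2.67%, and 2.40% were called higher. For 6 members, the called ones and Grb10, every dysmorphic kidney was above every control, which held in either direction for 14.4% of all genes. The median log2 fold change of the members was 0.81, against -0.04 for all genes tested.

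Dlk1 was 473, 232, 479, 659 and 366 CPM in dysmorphic fetuses 1 to 5 and 108, 102 and 123 CPM in control fetuses (log2 fold change 1.96, SE 0.31, edgeR adjusted p = 0.035). Meg3 was 728, 362, 895, 1043 and 619 CPM in dysmorphic fetuses 1 to 5 and 167, 219 and 273 CPM in control fetuses (log2 fold change 1.70, SE 0.35, edgeR adjusted p = 0.0456). Rian was 591, 293, 699.7, 514 and 322.4 CPM in dysmorphic fetuses 1 to 5 and 142, 183 and 118 CPM in control fetuses (log2 fold change 1.69, SE 0.32, edgeR adjusted p = 0.0402). The cluster on chromosome 12 thus held the 3 largest differences among the members, although it is transcribed from different parental copies. Fetus 2 was the lowest dysmorphic kidney for each of the 3.

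Peg3 was 1631, 976, 1760.2, 1735 and 1289 CPM in dysmorphic fetuses 1 to 5 and 665, 637 and 537 CPM in control fetuses (log2 fold change 1.25, SE 0.20, edgeR adjusted p = 0.035). Plagl1 was 794, 522, 718, 784 and 567 CPM in dysmorphic fetuses 1 to 5 and 324, 384 and 362 CPM in control fetuses (log2 fold change 0.90, SE 0.16, edgeR adjusted p = 0.0393). Grb10 was 498, 343, 557, 496 and 428 CPM in dysmorphic fetuses 1 to 5 and 295, 285 and 260.3 CPM in control fetuses, with groups that did not overlap but an adjusted p just above the threshold (log2 fold change 0.71, SE 0.15, edgeR adjusted p = 0.0514). It was called by DESeq2 (adjusted p = 0.00291), which called 12.0% of all genes, with a filter of 1 CPM and with halved counts (edgeR adjusted p = 0.0392 and 0.0469). H19, Igf2, Cdkn1c and Mest overlapped between the groups. Igf2 was 158, 75.7, 154, 79.8 and 72.4 CPM in dysmorphic fetuses 1 to 5 and 47.3, 97.4 and 47.3 CPM in control fetuses (log2 fold change 0.73, SE 0.38, edgeR adjusted p = 0.333). H19 was 1408, 1003, 1611, 1305 and 1133 CPM in dysmorphic fetuses 1 to 5 and 764, 1044 and 891 CPM in control fetuses (log2 fold change 0.50, SE 0.17, edgeR adjusted p = 0.159). The log2 fold changes of Cdkn1c and Mest were 0.64 and 0.57 (edgeR adjusted p = 0.221 and 0.24).

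Markers of other tissues moved with this difference. The 8 skeletal muscle markers summed to 9128 to 25132 CPM in dysmorphic and 4284 to 4493 CPM in control fetal kidneys, and 8 of 8 were called higher. The 9 mesenchyme markers summed to 5850.0 to 12822 and 3228 to 4263 CPM, with 1 of 9 called higher. The 5 proximal tubule markers summed to 22.0 to 806 and 1131 to 1363 CPM, with 0 of 5 called lower. No marker of these 3 lists was at 0 in either group. Dysmorphic fetus 2, lowest for Dlk1, Meg3, Rian, Peg3 and Plagl1, also had the lowest muscle and mesenchyme sums of its group, at 9128 and 5850.0 CPM. The 4 cartilage markers reached 2334 CPM in dysmorphic fetus 5. The part of these tissues in the members' difference was not tested. In control fetus 3 the 4 distal nephron markers summed to 2.37 CPM, so that it was apart from the other controls, at 691 and 209 CPM.

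The calls depended on the animals and on the model. Without dysmorphic fetus 1, 3 or 4 or any of the 3 controls, 0 members and 0 genes in all were called. Without dysmorphic fetus 2 the calls were 7 members and 1247 of 22362 genes, and without fetus 5 they were 6 members and 1141 of 22287 genes. With sex as a covariate, where 3 of 5 dysmorphic and 1 of 3 control fetuses were male, 0 members and 5 genes in all were called. With the prefix of the sample title as a block 2 members were called, Dlk1 and Peg3 (edgeR adjusted p = 0.0487 for both), beside 0.05002 for Rian, 0.0526 for Plagl1 and 0.0527 for Meg3, and in the fit over all 7 groups 0 were called.

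Kidney tumors were then compared to control kidneys and to non-transformed kidneys of the same mice. These comparisons share the tumors, and the comparison to control kidneys shares its controls with the fetal one above. Against control kidneys, 8 of 10 members had a positive log2 fold change, 2 had an unadjusted p under 0.05 (Rian and Mest), and 0 were called by edgeR, where 19% of all genes were called. DESeq2 called 4, Meg3, Rian, Cdkn1c and Mest, and 30% of all genes. The groups overlapped for all 10 members, while they did not for 29.8% of all genes.

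The tumors of the 6 mice differed widely from each other. Meg3 was 3.77 in mouse 1, 18.96 in mouse 2, 1.33 in mouse 3, 22.8 in mouse 4, 36.5 in mouse 5 and 0.469 in mouse 6 (CPM), and 1.77, 1.85 and 2.41 CPM in control kidneys (log2 fold change 2.77, SE 1.26, edgeR adjusted p = 0.146). Rian was 0.215 to 10.6 CPM with a median of 4.23 in kidney tumors (n = 6) and 1.03, 0.402 and 0.424 CPM in control kidneys (log2 fold change 2.92, SE 1.27, edgeR adjusted p = 0.13). Dlk1 was 0.439 to 17.3 CPM with a median of 2.77 in kidney tumors (n = 6) and 1.03, 1.21 and 1.93 CPM in controls (log2 fold change 1.94, SE 1.20, edgeR adjusted p = 0.27). Without mouse 5 the log2 fold change of Dlk1 was 1.13 (edgeR adjusted p = 0.436). For each of the 3 genes the tumors of mice 2, 4 and 5 were above all controls. The tumors of mice 1, 3 and 6 were within or below the controls, except for Meg3 in mouse 1.

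Muscle markers were also higher in the tumors of mice 2, 4 and 5. Their sum was 338, 519 and 66.9 CPM in mice 2, 4 and 5 and 6.55, 16.8 and 9.37 CPM in mice 1, 3 and 6, against 3.29 to 15.8 CPM in control kidneys, and 0 of 7 tested were called. The mesenchyme markers summed to 894 to 1939 CPM in kidney tumors and 312 to 539 CPM in control kidneys, which did not overlap, with 8 of 9 positive log2 fold changes and 3 of 9 called higher. The part of these markers in the members' difference was not tested. Without the libraries with Myh8 at 10 CPM or more, Dlk1 had a log2 fold change of -1.36, the opposite sign, and Meg3 one of 0.97 (edgeR adjusted p = 0.0992 and 0.507). Those of Rian and Mest were 0.70 and 0.58 (edgeR adjusted p = 0.519 and 0.349). That fit called 2 members, H19 higher and Igf2 lower, and 6149 of 22600 genes in all.

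H19 was 1.07 in mouse 1, 44.9 in mouse 2, 3.84 in mouse 3, 74.2 in mouse 4, 14.7 in mouse 5 and 2.46 in mouse 6 (CPM), and 14.3, 0.361 and 0.497 CPM in control kidneys (log2 fold change 2.20, SE 1.64, edgeR adjusted p = 0.357). The 3 high tumors were again those of mice 2, 4 and 5. Its log2 fold change was 5.75 without control mouse 1 and 1.40 without mouse 4 (edgeR adjusted p = 0.107 and 0.539). Without the 9 libraries named above it was 2.44 (edgeR adjusted p = 0.00664). The high control library was gone from that fit, and it held tumors of 4 of the 6 mice, 1, 2, 3 and 6. In the remaining tumor libraries H19 was 0.765, 1.32, 2.34, 2.35, 1.53 and 3.25 CPM, and in the 5 remaining control libraries it was 0.259 to 0.645 CPM. Both ranges are far under the fetal level.

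**Figure D3:**
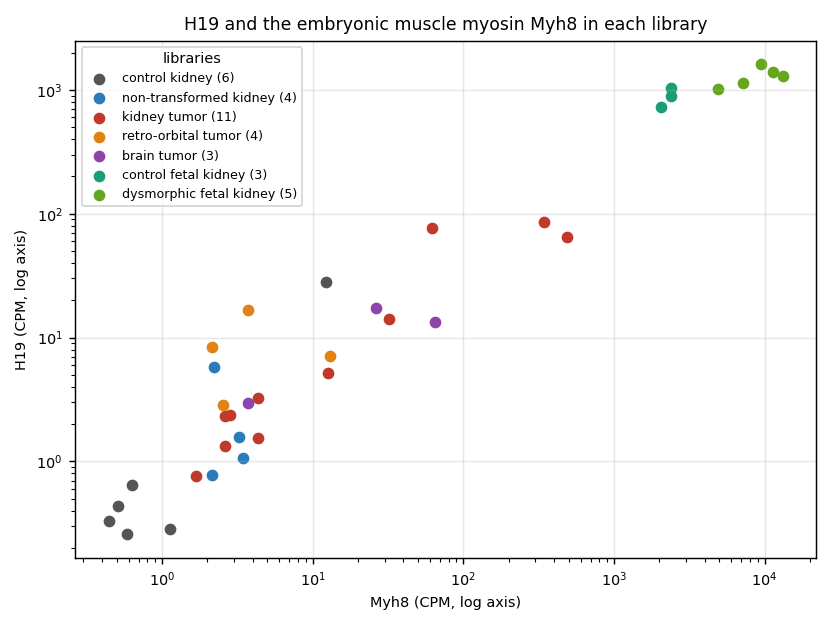
Level of H19 against that of the muscle myosin Myh8 in each of 36 libraries (CPM, both axes logarithmic), colored by group. The 8 fetal libraries are at the upper right, and among adult libraries the highest H19 levels, 86.4, 76.8 and 64.7 CPM, are in kidney tumor libraries with Myh8 at 342, 62.3 and 491 CPM.

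Igf2 had a negative log2 fold change. It was 0.127 in mouse 1, 1.84 in mouse 2, 0.187 in mouse 3, 6.01 in mouse 4, 0.609 in mouse 5 and 0.160 in mouse 6 (CPM), and 20.8, 4.54 and 2.88 CPM in control kidneys, so that 5 of 6 tumors were below all 3 controls (log2 fold change -2.69, SE 1.21, edgeR adjusted p = 0.141). Without mouse 4 Igf2 was called lower, at -4.01 (edgeR adjusted p = 0.0297). Without control mouse 1 it was -1.34 (edgeR adjusted p = 0.518). Without the 9 libraries it was -6.08 (edgeR adjusted p = 0.00155).

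Peg3 was 47.9 to 456 CPM with a median of 125 in kidney tumors (n = 6) and 43.2, 68.7 and 75.4 CPM in control kidneys (log2 fold change 1.40, SE 0.63, edgeR adjusted p = 0.144), and 5 of 6 tumors were above all controls. Without mouse 3 its log2 fold change was 0.80. Mest was 5.47 to 21.2 CPM with a median of 13.7 in kidney tumors (n = 6) and 6.84, 3.81 and 5.44 CPM in control kidneys, again with 5 of 6 tumors above (log2 fold change 1.32, SE 0.48, edgeR adjusted p = 0.0819). Without mouse 3 Mest was called (edgeR adjusted p = 0.0485). Cdkn1c was 1.17 in mouse 1, 18.7 in mouse 2, 29.8 in mouse 3, 2.75 in mouse 4, 2.21 in mouse 5 and 9.53 in mouse 6 (CPM), and 2.17, 2.62 and 1.99 CPM in control kidneys (log2 fold change 2.22, SE 1.02, edgeR adjusted p = 0.15), with a log2 fold change of 1.59 without mouse 3. It was high in mice 2, 3 and 6, of which mice 3 and 6 were among the lowest for Dlk1. With sex as a covariate, and in the fit over all 7 groups, Cdkn1c was the 1 member called. All 3 control mice were female by their Y-linked transcripts, against 4 of the 6 mice with kidney tumors. Plagl1 was 18.7 to 58.1 CPM with a median of 34.1 in kidney tumors (n = 6) and 19.5, 23.3 and 24.2 CPM in controls (log2 fold change 0.58, SE 0.34, edgeR adjusted p = 0.238), and Grb10 was 22.6 to 35.2 CPM with a median of 31.2 in kidney tumors (n = 6) and 24.1, 35.4 and 34.2 CPM in controls.

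Against non-transformed kidney, 9 of 10 members had a positive log2 fold change, 8 had an unadjusted p under 0.05, and 1 was called, with 17.1% of all genes called. That member was Mest, at 2.99, 4.55, 4.89 and 6.59 CPM in non-transformed kidneys (log2 fold change 1.48, SE 0.44, edgeR adjusted p = 0.0441). Mest was not called with the mouse as a block (log2 fold change 1.39, edgeR adjusted p = 0.103), which kept the 4 mice with both tissues and called 0 members. It was not called without mouse 1, 2, 3, 4 or 5 either, and without mouse 6 the count was 4. Without the libraries with Myh8 at 10 CPM or more its log2 fold change was 0.56 (edgeR adjusted p = 0.348), and it was not called without a filter or in the fit over all 7 groups (edgeR adjusted p = 0.0508 and 0.0843). DESeq2 called 8 members, all higher in tumors, and 27.4% of all genes. The mesenchyme markers summed to 385 to 746 CPM in non-transformed kidneys and 894 to 1939 CPM in kidney tumors, with 3 of 9 called higher. The skeletal muscle markers summed to 6.33 to 32.2 and 6.55 to 519 CPM, with 2 of 6 tested called higher and Myog at 0 in every non-transformed kidney, and the proliferation markers to 28.6 to 60.4 and 349.6 to 537 CPM, with 6 of 6 called higher. Their part in the members' difference was not tested.

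Cdkn1c was 1.94, 0.976, 1.53 and 1.56 CPM in the 4 non-transformed kidneys (log2 fold change 2.78, SE 0.90, edgeR adjusted p = 0.0587). Plagl1 was 17.97, 18.98, 17.6 and 17.1 CPM there (log2 fold change 0.88, SE 0.30, edgeR adjusted p = 0.0681). Peg3 was 81.7, 54.9, 63.0 and 42.9 CPM (log2 fold change 1.40, SE 0.54, edgeR adjusted p = 0.0976). For each of these 3 genes 5 of 6 tumors were above all non-transformed kidneys. Dlk1, Rian and Meg3 had log2 fold changes of 3.37, 3.13 and 2.88 (edgeR adjusted p = 0.0666, 0.0692 and 0.0988), and H19 one of 3.28 (edgeR adjusted p = 0.0992). Without the libraries with Myh8 at 10 CPM or more the log2 fold changes of Dlk1 and H19 were -0.16 and -0.18, near 0 and of the opposite sign, while that of Cdkn1c was 3.70 and that of Peg3 2.12, both called (edgeR adjusted p = 0.0202 and 0.0352). That fit called 3 members, 2 higher and 1 lower, and the lower one was Igf2 (log2 fold change -5.12, edgeR adjusted p = 0.025). It called 6099 of 20312 genes in all.

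In non-transformed against control kidneys all 10 log2 fold changes were negative, 2 members had an unadjusted p under 0.05, and 0 were called by edgeR, where 0.00952% of all genes were called. DESeq2 called Dlk1, and 2.35% of all genes. Dlk1 was 0.659, 0.287, 0.739 and 0.350 CPM in non-transformed and 1.03, 1.21 and 1.93 CPM in control kidneys (log2 fold change -1.43, SE 0.42, edgeR adjusted p = 0.267). The groups also did not overlap for Plagl1 (log2 fold change -0.31, SE 0.12, edgeR adjusted p = 0.364) and Cdkn1c (log2 fold change -0.58, SE 0.28, edgeR adjusted p = 0.463), and did not for 11.5% of all genes. H19 was 0.791 in mouse 1, 5.80 in mouse 3, 1.56 in mouse 4 and 1.13 in mouse 5 (CPM), Igf2 0.0565 in mouse 1, 10.1 in mouse 3, 7.63 in mouse 4 and 0.323 in mouse 5, and both overlapped the controls.

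Of the 6 tumor mice, 5 gave 2 kidney tumor libraries, and the 3 control mice gave 2 kidney libraries each, so the members could be compared within a mouse. Grb10 and Plagl1 varied least, by at most 1.54-fold and 1.55-fold between libraries of the same tumor mouse. H19 differed by 36.8-fold in mouse 2 (2.34 and 86.4 CPM), and Igf2 by 44.9-fold there (0.0795 and 3.57 CPM) and 11.6-fold in mouse 1. In mouse 2 Dlk1 also differed by 15.2-fold (0.576 and 8.79 CPM) and Rian by 11.6-fold (1.67 and 19.4 CPM). Cdkn1c differed by 12.0-fold in mouse 3 (4.60 and 55.1 CPM). Peg3 differed by 8.03-fold in mouse 6 (19.8 and 159 CPM) and Mest by 6.93-fold in mouse 1 (2.45 and 17.0 CPM). Each library is a single sample, and these values carry no test.

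Igf2 also varied within mice in control tissue. In control mouse 2 it was 0.0501 and 9.24 CPM in the 2 kidney libraries, in control mouse 3 0.0822 and 5.63 CPM, and in control mouse 1 18.8 and 21.7 CPM. H19 in these 4 libraries of mice 2 and 3 stayed between 0.259 and 0.645 CPM, so its neighbor on chromosome 7 did not follow. The mean of a control mouse for Igf2 therefore averaged libraries up to 184-fold apart.

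**Figure D4:**
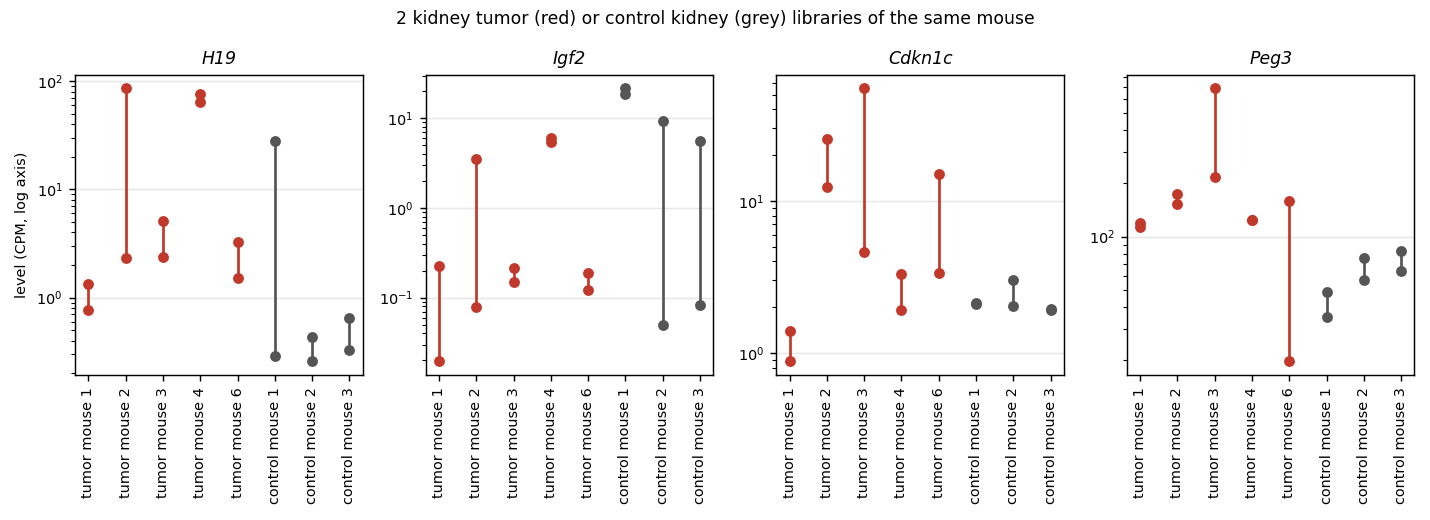
Level (CPM, log axis) of H19, Igf2, Cdkn1c and Peg3 in the 2 kidney libraries of each mouse, joined by a line, in red for kidney tumors (5 mice) and grey for control kidneys (3 mice). H19 in tumor mouse 2 and control mouse 1, Igf2 in control mice 2 and 3 and tumor mouse 2, Cdkn1c in tumor mouse 3 and Peg3 in tumor mouse 6 have long lines, with the values given in the text.

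The tumor sites were compared next, with kidney tumors as the reference. Plagl1, Mest and Grb10 were higher and Cdkn1c lower in retro-orbital tumors, 4 of 10 members called, against 17.7% of all genes. DESeq2 called 7 members and 27.0% of all genes. For 5 members the groups did not overlap, against 16.1% of all genes. Plagl1 was 162 in mouse 2, 134 in mouse 3, 97.3 in mouse 5 and 133 in mouse 6 (CPM), above all 6 kidney tumors, whose range was 18.7 to 58.1 CPM (log2 fold change 1.92, SE 0.29, edgeR adjusted p = 0.00304). Mest was 66.8 in mouse 2, 106 in mouse 3, 29.95 in mouse 5 and 80.9 in mouse 6 (CPM), again above all kidney tumors (5.47 to 21.2 CPM) (log2 fold change 2.36, SE 0.45, edgeR adjusted p = 0.0072). Both were called in every fit that left out a mouse, and Plagl1 also with the mouse as a block (edgeR adjusted p = 0.0333), where Mest was not (edgeR adjusted p = 0.0752). That block kept only the 4 mice with both tissues. The level of Plagl1 in retro-orbital tumors was still under that of any control fetus.

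Grb10 was 40.2, 40.4, 43.2 and 46.3 CPM in retro-orbital tumors and 22.6 to 35.2 CPM in kidney tumors, a small difference in groups that did not overlap (log2 fold change 0.47, SE 0.14, edgeR adjusted p = 0.0457). Cdkn1c was 0.252, 0.868, 1.27 and 0.615 CPM in retro-orbital tumors (log2 fold change -3.85, SE 1.02, edgeR adjusted p = 0.0279), and 3 of 4 were below every kidney tumor. The blocked fit called 2 members, Plagl1 and Grb10, and not Cdkn1c (log2 fold change -4.12, edgeR adjusted p = 0.0591). Grb10 and Cdkn1c were not called without mouse 2, 3 or 6, and Grb10 was not called without mouse 5.

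Meg3 was 128, 40.7, 86.4 and 51.1 CPM and Rian 31.4, 11.5, 26.5 and 30.2 CPM in retro-orbital tumors of mice 2, 3, 5 and 6, all above every kidney tumor, with log2 fold changes of 2.42 (SE 0.98) and 2.37 (SE 0.94) that edgeR did not call (adjusted p = 0.115 and 0.109). Dlk1 was 46.3, 38.1, 13.4 and 72.1 CPM there (log2 fold change 2.95, SE 1.0, edgeR adjusted p = 0.0684). Without the libraries with Myh8 at 10 CPM or more, the 3 genes of the cluster were called, with log2 fold changes of 4.56, 5.00 and 6.18 (edgeR adjusted p = 0.0485, 0.0165 and 0.00326), as were Plagl1 and Mest. That fit left out the retro-orbital tumor of mouse 6, the kidney tumors of mice 4 and 5 and 1 kidney tumor library each of mice 2 and 3, and the tumors of mice 2, 4 and 5 were the highest kidney tumors for the 3 genes, so that the kidney tumor levels in it were lower by construction. Peg3 was 17.8, 121, 53.6 and 21.4 CPM (log2 fold change -1.66, SE 0.72, edgeR adjusted p = 0.135). Igf2 was at most 0.588 CPM and H19 2.79 to 16.8 CPM in retro-orbital tumors.

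In the same tumors the 9 mesenchyme markers summed to 1967 to 3520.0 CPM against 894 to 1939 CPM in kidney tumors, with 4 of 9 called higher, and the 5 proximal tubule markers to 83.4 to 1013 against 621 to 7742 CPM, with 0 of 5 called. Skeletal muscle markers were low in retro-orbital tumors, at 6.51 to 26.7 CPM, beside 6.55 to 519 CPM in kidney tumors. The 6 proliferation markers summed to 681 to 1175 CPM and 349.6 to 537 CPM, with 6 of 6 called higher. The 5 endothelium markers summed to 879 to 1302 and 354 to 645 CPM, with 3 of 5 called higher, and the 5 liver markers to 0.349 to 12.8 and 5.62 to 516 CPM, with 2 of 5 called lower. No marker of these lists was at 0 in either group. The part of these tissues in the members' difference was not tested.

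The 3 brain tumors were unlike each other. Against kidney tumors 1 of 10 members, Plagl1, was called, against 8.74% of all genes. Plagl1 was 417 in mouse 1, 56.8 in mouse 2 and 55.98 in mouse 4 (CPM) (log2 fold change 2.40, SE 0.63, edgeR adjusted p = 0.048). It was not called in any fit that left out a mouse. With the mouse as a block, over the 3 mice with both tissues, 0 genes in all were called. DESeq2 gave Plagl1 a log2 fold change of 2.43 but no adjusted p, so it neither made nor lost the call, and it called 0 members and 21.8% of all genes. The log2 fold change of Plagl1 was 0.63 without mouse 1 and 2.30 to 2.85 without any other mouse. Dlk1 was 136 in mouse 1, 22.1 in mouse 2 and 0.759 in mouse 4 (CPM) (log2 fold change 3.30, SE 1.42, edgeR adjusted p = 0.165), with a log2 fold change of 0.88 without mouse 1. Peg3 was 785 in mouse 1, 660.0 in mouse 2 and 63.1 in mouse 4 (CPM) (log2 fold change 1.63, SE 0.77, edgeR adjusted p = 0.199), and without the libraries with Myh8 at 10 CPM or more, which left the tumor of mouse 4 alone in its group, the sign turned (-2.03). Meg3, Rian and Mest were highest in mouse 2, at 178, 85.8 and 73.5 CPM, against at most 7.36, 3.35 and 4.02 CPM in the other mice. The 10 markers of neurons and glia summed to 129, 1762 and 436 CPM in mice 1, 2 and 4, and the highest sum was that of mouse 2. Neurons express Meg3, Rian and Peg3, and the part of brain tissue in these levels was not tested. Dlk1, Plagl1 and Peg3 were highest in mouse 1, which had the lowest brain sum of the 3.

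Between brain and retro-orbital tumors 0 members were called by edgeR, where 1.73% of all genes were called, 4 had an unadjusted p under 0.05, and DESeq2 called 3, Igf2, Peg3 and Cdkn1c, and 14.6% of all genes. Grb10 was the 1 member whose groups did not overlap, with 18.4, 29.1 and 7.95 CPM in brain tumors (log2 fold change -1.22, SE 0.41, edgeR adjusted p = 0.15), against 18.9% of all genes. Igf2 was 0.291, 7.15 and 1.75 CPM in brain tumors and 0.210, 0.0340, 0.588 and 0.133 CPM in retro-orbital tumors (log2 fold change 3.65, SE 1.22, edgeR adjusted p = 0.149), and without mouse 2 its log2 fold change was 2.01. The member with the smallest p was Peg3, at 785, 660.0 and 63.1 CPM in brain tumors (log2 fold change 3.21, SE 0.97, edgeR adjusted p = 0.125). Without the libraries with Myh8 at 10 CPM or more, which left 1 brain tumor, the log2 fold change of Peg3 was -0.04 (edgeR adjusted p = 0.988).

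The difference that goes with the fusion was compared between the models as an interaction, the kidney tumor difference minus the dysmorphic difference. By edgeR 0 of 10 members were called, where 8.94% of all genes were called, 2 had an unadjusted p under 0.05, and DESeq2 called 1, and 15.2% of all genes. Those with the smallest p were Grb10 (log2 fold change -0.75, SE 0.25, edgeR adjusted p = 0.0753) and Igf2 (log2 fold change -3.40, SE 1.48, edgeR adjusted p = 0.168). Grb10 was called with RLE factors (-0.85, edgeR adjusted p = 0.0484), by DESeq2 and with a filter of 1 CPM, and also without mouse 6, control mouse 1 or dysmorphic fetus 2. Igf2 was called without mouse 4 (-4.68, edgeR adjusted p = 0.0267) and without the libraries with Myh8 at 10 CPM or more (-6.83, edgeR adjusted p = 0.000192), while without control mouse 1 it was -2.06 (edgeR adjusted p = 0.431).

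Other genes of the pathway were taken from lists. In the control fetus against the control adult, 49.0% of all genes were called and 25.1% were called higher. Of 25 other imprinted genes, with 24 tested, 14 were called higher and 5 lower. The largest log2 fold changes were those of Magel2, at 9.68, Usp29, a neighbor of Peg3, at 7.54, Mirg, at 7.51, and Rtl1, at 7.41, both of the chromosome 12 cluster (edgeR adjusted p = 0.000283, 3.69e-05, 0.000162 and 0.000136). Their means in control adult kidneys were 0.0186, 0.0269, 0.0258 and 0.0394 CPM, so the size of these folds rests on few reads. Phlda2 and Slc22a18, imprinted neighbors of Cdkn1c, were lower in the fetus, at -2.95 and -5.47 (edgeR adjusted p = 0.000944 and 0.000349). All 9 oncofetal regulators were higher in the fetus, among them Lin28b, a blocker of let-7 processing, at 10.18, and Igf2bp3, which binds Igf2 mRNA, at 8.03 (edgeR adjusted p = 0.000694 and 0.00027). Lin28b was at 0 CPM in control adult kidneys. Of 17 genes of the IGF axis 7 were higher and 8 lower, the receptor gene Igf1r among the lower at -1.39 (edgeR adjusted p = 0.00451). The list medians were 1.35 for the other imprinted genes, 6.87 for the oncofetal regulators and -0.42 for the IGF axis, against 0.03 over all genes.

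In dysmorphic against control fetal kidneys 2.67% of all genes were called, and 2.40% were called higher. There 5 of 24 tested other imprinted genes were called, all higher: Magel2 (2.5), Rtl1 (2.32), Mirg (1.96), Zim1 (1.96) and Usp29 (1.57), as log2 fold changes. Rtl1 and Mirg lie in the cluster of Dlk1, Meg3 and Rian, and Zim1 and Usp29 beside Peg3. Their edgeR adjusted p-values were 0.0395, 0.035, 0.0382, 0.035 and 0.0415. Of the IGF axis, Igf1, the growth factor that takes over from Igf2 after birth, and Irs1, an adaptor of its receptor, were higher, at 1.11 and 1.21 (edgeR adjusted p = 0.0456 and 0.0412). Of the close relatives of members, Dlk2 and Cdkn1a were higher at 2.04 and 1.13 (edgeR adjusted p = 0.0382 and 0.0439). The median of the other imprinted genes was 0.72, against -0.04 over all genes. As said for the members, 0 genes in all were called without dysmorphic fetus 1, 3 or 4 or without any control fetus. With sex as a covariate 5 genes in all were called.

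In kidney tumors against control kidneys, where 19% of all genes were called, 4 of 24 tested other imprinted genes were called. Of 24 tested other imprinted genes 3 were higher, Impact (3.00), Igf2r (2.53) and Sgce (1.32), and 1 was lower, Peg13 (-1.25), with edgeR adjusted p of 0.000614, 0.00489, 0.0261 and 0.0271. Igf2r encodes the receptor that clears IGF2 into lysosomes. Of the IGF axis 4 genes were higher, Igf2r, Igf1 (1.96), Irs2 (2.37) and Igfbp5 (0.92), and Igfals was lower (-2.59), with edgeR adjusted p of 0.0256, 0.00468, 0.00704 and 0.0376 for the latter 4. Of the oncofetal regulators Lin28b (7.24) and Hmga1 (2.29) were higher (edgeR adjusted p = 0.0395 and 0.00738). Lin28b had a mean of 0.0956 CPM in kidney tumors and 0 in control kidneys, so its fold rests on few reads. Of 15 genes that set or keep imprints, 4 were higher and 2 lower. Dnmt1 (1.05), which copies DNA methylation after replication, and its partner Uhrf1 (2.96) were higher and the demethylases Tet1 (-1.28) and Tet2 (-1.09) lower (edgeR adjusted p = 0.00702, 0.000755, 0.0368 and 0.0177). Dnmt3l (2.80) and Dppa3 (2.45), genes of the germ line, were also higher (edgeR adjusted p = 0.0385 and 0.0131). Their means were 0.257 and 0.325 CPM in kidney tumors and 0.0362 and 0.0584 CPM in control kidneys, and these low values rest on few reads. Dnmt1 and Uhrf1 are also genes of dividing cells, and the proliferation markers summed to 349.6 to 537 CPM in kidney tumors and 48.6 to 70.0 CPM in control kidneys. Methylation itself was not measured.

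Between retro-orbital and kidney tumors, where 17.7% of all genes were called, 3 of 24 tested other imprinted genes were lower in the former, Slc22a18 (-3.72), Slc38a4 (-3.56) and Phlda2 (-2.69), and 0 were higher. Slc22a18 and Phlda2 neighbor Cdkn1c. Of the 16 tested genes of the IGF axis 1 was higher, Igfbp3, a binding protein of the IGFs (1.68), and 3 were lower, Igf1r (-2.0), Igfbp1 (-2.88) and Pappa (-1.90), a protease that cleaves IGF binding proteins. Of the 7 tested oncofetal regulators 0 were higher and 2 lower, Igf2bp2 (-4.28) and Plag1 (-2.39), and of 8 close relatives of members 2 were lower, Plag1 and Grb7 (-4.19). Their edgeR adjusted p-values were 0.0447 for Igfbp1, 0.0259 for Pappa, 0.00475 for Igf2bp2, 0.00534 for Plag1 and 0.0486 for Grb7. Those of Slc22a18, Slc38a4, Phlda2, Igfbp3 and Igf1r were 0.0316, 0.0188, 0.0238, 0.00468 and 0.00276.

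Last, the genes most like each member were listed over the 20 sums of animal and tissue in the Sglt2-Cre table, by Spearman's rho of log2(CPM + 0.1). These sums share mice and cover 5 tissues, so the values are a description and have no p. The lists rest on the measure used: with Pearson's r in its place, 2 of the 3 genes listed for H19 were again among the first 3, and at most 1 of 3 for every other member. Among members, Meg3 was most like Rian (rho = 0.91) and Dlk1 most like Plagl1 (0.91), while H19 and its neighbor Igf2 had a rho of 0.25. For H19 the 3 most similar other genes were Mybpc1 (0.88), Myh3 (0.84) and Tnnt3 (0.83), which encode muscle filament proteins. For Meg3 they were Col25a1 (0.95), Nav1 (0.93) and Gprasp2 (0.93), and Gprasp2 also stood on the list of Dlk1 (0.87) with Mmp16 (0.89) and St3gal5 (0.87). For Plagl1 they were Ube2ql1 (0.94), Kctd16 (0.93) and CK137956 (0.93), and for Mest Htr4 (0.92), Trp53i11 (0.88) and Pgm2l1 (0.88). For Peg3 the first was Pou3f4 (0.86), for Cdkn1c Samd4b (0.88), for Igf2 Ptpn5 (0.87), for Rian 3110039I08Rik (0.93) and for Grb10 Adgrl2 (0.81).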

How the data were processed

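Stranded total RNA libraries were made without depletion of ribosomal RNA. The deposited values were raw counts per gene in 2 tables, with 53379 genes each. The submitters' processing notes name FastQC, MultiQC, Bowtie2, STAR 2.5.2a and GRCm38; the counter and annotation are not given in the sources used here. In each library 79.0 to 84.3% of counts from 1 to 20 were even, so halved counts were an alternative. Genes were matched to GENCODE M21 without identifier versions (53274 of 53379).

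Counts were summed per animal and group. For each comparison edgeR 4.0.16 (R 4.3.3) was run on the groups compared, with filterByExpr, TMM factors and the quasi-likelihood F-test with Benjamini-Hochberg adjustment over all genes tested, and a gene was called at an adjusted p under 0.05. The SE was the absolute log2 fold change over the square root of F. Levels are CPM on TMM-scaled totals. Alternatives were RLE and upper quartile factors, DESeq2 1.42.0, no filter, a filter of 1 CPM, a joint fit of 7 groups, halved counts, blocks, sex, and leaving out animals. Sex was read from Y-linked transcripts and is not a label. All 3 control kidney mice were female, against 2 of the 4 mice with non-transformed kidney. The fits were tested on simulated data with known changes.

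The 10 members and all lists were chosen with earlier results of these data known. Genes named in the text were the members, genes of the fixed lists, and for each member the non-members with the highest Spearman correlation among genes with a mean of at least 1 CPM. Fam169a, Hdc, Slc4a11 and Myh8 were chosen after their values were seen. Samples of the same mouse were taken as paired, per the labels, only in the fits with the mouse as a block. The main fits had no term for the mouse. Across genes, deviations from the group means correlated at -0.03 to 0.21 between kidney tumor and non-transformed kidney (4 mice), at 0.16 to 0.35 between retro-orbital and kidney tumor (4 mice) and at -0.19 to 0.11 between brain and kidney tumor (3 mice).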

Additional observations from a re-analysis of the deposited data

Results flagged for a closer look

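In 3 of 40 combinations of gene and group with 4 or more animals, 1 animal stood far from the others. The rule set the gap to the next animal against the range, on CPM without a log. Skewed levels such as these give wide gaps on that scale, so no rate by chance is given. H19 was 5.80 CPM in mouse 3 among non-transformed kidneys, and the next highest of the 4 kidneys was 1.56 CPM. Igf2 was 6.01 CPM in the kidney tumor of mouse 4, and the next highest of the 6 tumors was 1.84 CPM. Both kidney tumor libraries of that mouse were high, at 5.43 and 5.99 CPM. Peg3 was 456 CPM in the kidney tumor of mouse 3, and the next highest was 159 CPM. There the libraries of the mouse held 218.3 and 689 CPM, so that the lower of them was also above the tumors of the other 5 mice.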

How the results depend on the processing

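Counts of members called moved as follows. Against control kidneys, the 0 members called in kidney tumors became 4 with DESeq2, 1 in the joint fit, 1 with sex as a covariate, 2 without the libraries with Myh8 at 10 CPM or more, and 0 to 1 when each animal was left out. Against non-transformed kidney the 1 became 8 with DESeq2, 0 without a filter, 3 with the filter of 1 CPM, 5 in the joint fit, 3 without the Myh8 libraries and 0 to 4 with an animal left out. Non-transformed against control kidney went from 0 to 1 with DESeq2 and stayed at 0 with any animal left out. Retro-orbital against kidney tumor went from 4 to 7 with DESeq2, 3 without a filter, 6 in the joint fit, 5 without the Myh8 libraries (5 higher and 0 lower, Cdkn1c not called) and 2 to 4 with a mouse left out. Brain against kidney tumor went from 1 to 0 with DESeq2, which gave Plagl1 no adjusted p and so lost no call, and to 0 without a filter, without the Myh8 libraries and with any mouse left out, and to 4 in the joint fit. Brain against retro-orbital tumor went from 0 to 3 with DESeq2, to 2 in the joint fit and to 0 to 1 with a mouse left out. Dysmorphic against control fetal kidneys went from 5 to 6 with DESeq2, the filter of 1 CPM or halved counts, to 0 in the joint fit, to 2 with the prefix of the sample title as a block, to 0 with sex as a covariate and to 0 to 7 with a fetus left out. The interaction went from 0 to 1 with RLE factors, DESeq2 or the filter of 1 CPM, to 3 without the Myh8 libraries and to 0 to 1 with an animal left out. Fetal against adult controls stayed within 9 to 10, with Igf2 lost in the joint fit. The cause of these changes was not tested.

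With the mouse as a replicate block, kidney tumor against non-transformed kidney called 0 members in place of 1, retro-orbital against kidney tumor 2 in place of 4, and brain against kidney tumor 0 in place of 1. These 3 fits kept only the mice with both tissues, 4, 4 and 3 mice. The effects of the block and of the animals left out cannot be told apart. Brain and retro-orbital tumors share only mouse 2, so their block was fitted over the 3 tumor sites together, a choice made after seeing the data, and it called 0 members, as without it.

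Without the Myh8 libraries 5 log2 fold changes of members changed sign: Dlk1 in kidney tumors against controls from 1.94 to -1.36, H19 and Dlk1 against non-transformed kidney from 3.28 to -0.18 and from 3.37 to -0.16, and Peg3 in brain against kidney tumors from 1.63 to -2.03 and against retro-orbital tumors from 3.21 to -0.036. Only folds of members were compared across settings.

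Over all genes, DESeq2 called 7070 in place of 4474 genes between kidney tumors and control kidneys, 6004 in place of 3755 against non-transformed kidney, 5975 in place of 3919 between retro-orbital and kidney tumors, 5104 in place of 2044 between brain and kidney tumors, and 3080 in place of 364 between brain and retro-orbital tumors. For the dysmorphic kidneys it called 2726 in place of 605, for non-transformed against control kidneys 493 in place of 2, and for the interaction 3712 in place of 2185. The joint fit called 6548, 3816 and 271 genes for brain against kidney tumors, brain against retro-orbital tumors and dysmorphic kidneys. With the block the counts were 847 against non-transformed kidney, 0 for brain against kidney tumors and 3 for brain against retro-orbital tumors. Without the Myh8 libraries they were 6099, 1516, 185, 0 and 3543 for kidney tumor against non-transformed kidney, retro-orbital and brain against kidney tumor, brain against retro-orbital tumor and the interaction. With an animal left out the range was 1163 to 5856 for kidney tumors against controls, 1252 to 3873 against non-transformed kidney, 0 to 10 for non-transformed kidney, 1635 to 4089 for retro-orbital and 300 to 1528 for brain against kidney tumors, 0 to 1316 for brain against retro-orbital tumors, 0 to 1247 for dysmorphic kidneys and 956 to 2954 for the interaction.

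Upper quartile factors moved the median of all genes from 0.03 to 0.26 for fetal against adult controls and from -0.09 to 0.03 for retro-orbital against kidney tumors, with no member's call changed. With plain totals in place of TMM, 64 of 70 group levels stayed within the spread of their group. With Pearson's r in place of Spearman's rho, 9 of the 10 lists of most similar genes kept at most 1 of 3 genes.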

Other observations

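Among the 10 kidney libraries without tumor (6 control, 4 non-transformed), Igf2 varied from 0.05 to 21.7 CPM, and its level was set beside those of other genes after the values had been seen. Fam169a had the most similar pattern of those given here, with Pearson's r = 0.990 of log2(CPM + 0.1) and Spearman's rho = 1, over a range of 0.25 to 7.90 CPM. Hdc, which encodes histidine decarboxylase, had r = 0.949 and rho = 0.90, and ranged from 0.432 to 157 CPM. Slc4a11, a membrane transporter gene, had r = 0.949 and rho = 0.95, and ranged from 0.484 to 22.7 CPM. H19, the neighbor of Igf2, had r = 0.420 and rho = 0.25. These libraries come from 7 animals, some with a pair of libraries, and the values are a description with no test.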
